A study of Mus musculus with 14 samples.

Results

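The genes described here encode the proteins that fill, dock, fuse and recover synaptic vesicles, and the families to which those proteins belong. They were chosen by symbol alone: synaptotagmins, syntaxins, vesicle-associated membrane proteins, complexins, syntaxin-binding proteins, RIMs, solute carriers of family 17, synaptojanins, synaptogyrins and synaptotagmin-like proteins followed by a number, together with the synapsins, SV2 proteins, Rab3 proteins, the SNAP proteins 23, 25, 29, 47 and 91, Syp, Bsn, Pclo and Erc2. Of 51211 gene symbols found in both tables of values, 93 met the rule. The wording of the rule admits no Unc13 gene, because their symbols carry a letter and no digit after the family number. Unc13a to Unc13d are therefore given apart, outside the members and outside the list of other genes of the pathway. The rule itself uses no expression value, though it was written with earlier results of these data known.

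RNA from whole olfactory epithelium of 14 mice at postnatal day 5 (P5) was measured in 2 experiments. In the Kir2.1 experiment, 3 mice labelled Kir2.1-Off and called Kir2.1 mice here, which carried OMP-IRES-tTA together with the transgene tetO-Kir2.1-IRES-tauLacZ, were compared with 3 control mice heterozygous for OMP-IRES-tTA alone. Both groups carried the tTA transactivator at the Omp locus, so the potassium channel Kir2.1, which lowers excitability, was driven in cells that express Omp, which are the mature olfactory sensory neurons (OSNs) and also neurons of the vomeronasal organ. In the PEA experiment, 4 wild type mice exposed continuously to PEA (2-phenylethylamine, an odorant amine) from P0 to P5 were compared with 4 unexposed wild type mice. The labels give C57BL/6 as the strain background of all 14 mice, whereas the study's methods name CD-1 pups for the PEA exposure. The study's methods name littermates of the Kir2.1 pups, but nothing in the labels says which mice shared a litter. The p-values therefore set each difference against the spread between these mice, and a litter effect was not tested.

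A synaptic vesicle is loaded by a vesicular transporter, tethered through synapsins, Rab3 and active zone scaffolds, and fused when the vesicle SNARE synaptobrevin zippers with syntaxin and SNAP-25 at the plasma membrane under the control of complexin and the calcium sensor synaptotagmin. Clathrin, dynamin and synaptojanin then recover the membrane. OSNs release glutamate from axon terminals in the olfactory bulb, but their cell bodies, where most of their messenger RNA lies, are in the epithelium. Many syntaxins, VAMPs and synaptotagmin-like proteins serve traffic in every cell, so the list also holds genes that are not particular to neurons.

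The values are normalized counts, that is, estimates of reads per gene that the authors scaled between mice; they summed to between 3.30e+07 and 3.42e+07 per mouse in the Kir2.1 experiment and between 1.15e+07 and 1.25e+07 in the PEA experiment, and the depth of the libraries is unknown. Kcnj2, the gene for Kir2.1, lay between 986 and 1274 in control mice and between 17926 and 24193 in Kir2.1 mice, so the labels held for this gene. All 10 markers of mature OSNs, such as Omp, Cnga2 and Adcy3, were abundant in both experiments, in keeping with the labelled tissue. Vomeronasal receptor genes, which mark neurons of a neighbouring organ, summed to 11787 in control mouse 1 of the Kir2.1 experiment and to between 1448 and 1743 in the other 5 mice, and results are therefore also given without that mouse. In the PEA experiment the same sum ranged from 656 to 10636 in the controls and from 586 to 7886 in the exposed mice. The 8 olfactory bulb and brain markers summed to between 581 and 753 in the controls of the Kir2.1 experiment and to between 540 and 594 in the Kir2.1 mice. Of these, Gad2 averaged 414 in controls, Eomes 122 and Tbr1 107, whereas Gad1, Slc32a1, Tbx21 and Th averaged under 10, and the part of such cells in the results was not tested.

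The members spanned a wide range of levels in control epithelium. Levels between genes were compared as mean normalized counts per kilobase of the longest coding transcript, which could be computed for 92 of 93 members; no transcript length was found for Vamp7. In the Kir2.1 experiment 14 members were above 1000 per kilobase in controls, 60 were at 100 or more and 12 were below 10. The most abundant was Syp, a vesicle membrane protein, at 3038 per kilobase, followed by the atypical synaptotagmin Syt11 at 2729, the vesicle GTPase Rab3a at 2398 and the synaptobrevin Vamp2 at 2391. These 4 levels are means over the same 3 mice, and their order was not tested.

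In several roles 1 member stood well above its relatives in the controls of the Kir2.1 experiment, to which the levels per kilobase below belong. Cplx2, which clamps and assists fusion, was at 1582 per kilobase in the controls of the Kir2.1 experiment and Cplx1 at 12.9, whereas the retinal complexins Cplx3 and Cplx4 had mean normalized counts of 0.346 and 0 in the same mice. Slc17a6, which encodes the vesicular glutamate transporter VGLUT2, was at 977 per kilobase and its relative Slc17a7 (VGLUT1) at 31.3. Of the plasma membrane syntaxins Stx1a led at 1386 per kilobase with Stx2 at 1206. Among the SNAP-25 family, Snap25 (1503 per kilobase) and Snap47 (1480) were nearly level. Rims3 at 852 per kilobase led the active zone genes, and the clathrin adaptor Snap91 at 665 led the recovery genes. Stx12 (1172) led the endosomal and Golgi syntaxins and Sytl1 (838) the synaptotagmin-like genes. In the PEA controls Cplx2 and Slc17a6 still led Cplx1 and Slc17a7, but some orders were reversed. There Stx1a had normalized counts of 209 to 339 over 2162 bases, and Stx2 605 to 954 over 2939 bases. Sytl1 had 111 to 124 over 1951 bases, and Sytl2 562 to 898 over 3838 bases. Vamp2 had 212 to 365 over 2205 bases, and Vamp8 501 to 807 over 2076 bases.

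**Figure D1:**
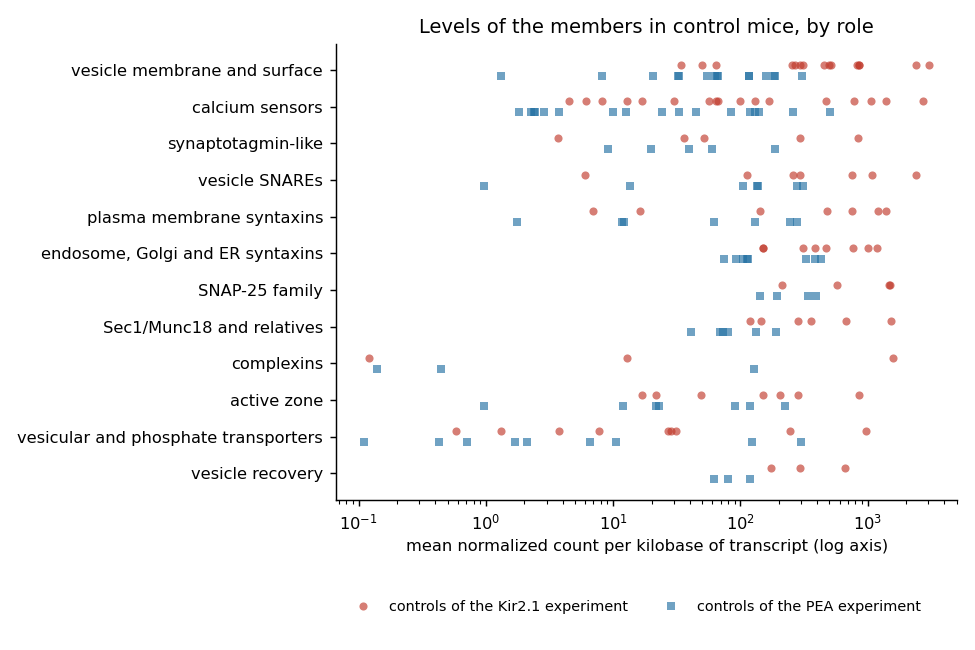
Mean level of each member in control mice, as normalized counts per kilobase of transcript on a log axis, by role. Circles are controls of the Kir2.1 experiment (3 mice) and squares controls of the PEA experiment (4 mice); the 2 tables were normalized separately. Members at 0 are not drawn. Syp is highest in the Kir2.1 experiment, at 3038 per kilobase, and Syt11 in the PEA experiment, at 509.

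Sequences before the transcription start are shown for Slc17a6 and Syt1, the members with the smallest p-values in the Kir2.1 comparison below, and for the synapsin genes Syn1 and Syn2, which were among the 6 members with the smallest. They are RefSeq sequences on GRCm38.p6, cut where needed so that only bases before both the RefSeq start and the GENCODE gene begin are printed. Capitals mark a match to 1 of 3 motifs that were searched on both strands, namely TGACGTCA (the cyclic AMP response element, CRE), GCGCATGC (the NRF1 core) and CCCNNGGG (the core bound by EBF factors of olfactory neurons).
Slc17a6, chr7:51621580-51621829, plus strand: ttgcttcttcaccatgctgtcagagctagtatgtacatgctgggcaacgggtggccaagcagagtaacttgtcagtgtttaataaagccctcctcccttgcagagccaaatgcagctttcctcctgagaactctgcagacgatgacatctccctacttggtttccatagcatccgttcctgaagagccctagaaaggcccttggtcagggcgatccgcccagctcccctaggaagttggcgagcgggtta
Syt1, chr10:109010983-109011225, minus strand: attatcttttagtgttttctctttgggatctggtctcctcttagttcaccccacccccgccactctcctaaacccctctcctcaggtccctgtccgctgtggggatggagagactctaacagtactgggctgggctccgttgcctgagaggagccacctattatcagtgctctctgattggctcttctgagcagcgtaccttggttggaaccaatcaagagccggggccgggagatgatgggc
Syn1, chrX:20921005-20921168, minus strand: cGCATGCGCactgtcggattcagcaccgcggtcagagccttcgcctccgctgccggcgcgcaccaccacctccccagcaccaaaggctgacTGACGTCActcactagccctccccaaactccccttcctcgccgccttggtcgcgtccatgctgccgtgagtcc
Syn2, chr6:115134652-115134901, plus strand: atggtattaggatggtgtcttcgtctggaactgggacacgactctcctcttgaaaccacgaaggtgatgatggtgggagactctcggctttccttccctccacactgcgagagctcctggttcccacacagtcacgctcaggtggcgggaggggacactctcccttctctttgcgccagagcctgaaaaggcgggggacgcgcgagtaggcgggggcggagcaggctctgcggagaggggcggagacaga

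Of these 4 stretches only that of Syn1 held a match, 1 to the NRF1 core, read on the other strand, and 1 to the CRE. Over whole windows of 250 bases before to 50 after a start, 72 of 93 members had 93 windows in the RefSeq table. The CRE was in 2.15% of the members' windows (Syn1 and Stxbp3) and in 1.79% of all 32851 windows. The EBF core was in 19.4% of the members' windows, in 18 members, and in 13.7% of all windows. The NRF1 core was in 8.6% of the members' windows, in 7 members, and in 2.71% of all windows. A match says only that these letters are present, and the shares were not tested.

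The first comparison asked how release genes stood in epithelium whose mature OSNs expressed Kir2.1. After the filter of a mean of at least 10, 87 of the 93 members were tested. Slc17a6, Syt1 and Synj2 fell and no member rose, where a call required a limma p below 0.05 after Benjamini-Hochberg adjustment across the 19807 genes tested. These 3 of 87 stand against 0.353% of all genes called. The other 6 members, Cplx3, Cplx4, Slc17a2, Slc17a4, Sytl5 and Vamp9, had means under 10 and were not tested.

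Slc17a6 (chr7:51622006-51671119, plus strand) loads glutamate into the vesicles of OSNs. Controls 1, 2 and 3 had normalized counts of 3974, 4256 and 3898, and Kir2.1 mice 1, 2 and 3 had 2298, 2407 and 2473. Every Kir2.1 mouse was far below every control, and each group was tight. The mean went from 4043 ± 189 to 2393 ± 88.8 (SD, n = 3 per group), which is 59.2% of the control level, and the log2 fold change was -0.76 (SE 0.07, limma adjusted p = 0.00958). The call was lost without control mouse 1 (limma adjusted p = 0.0571), control mouse 2 (0.0562) or Kir2.1 mouse 1 (0.0516), and also with the vomeronasal receptor level as a covariate (0.0582) or without a mean-variance trend (0.0705), with the log2 fold change between -0.78 and -0.72 whichever mouse was left out.

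Syt1 (chr10:108497650-109010982, minus strand) encodes the calcium sensor that triggers synchronous release. It was at 3496, 3974 and 3809 in the controls and at 2465, 2523 and 2633 in the Kir2.1 mice. The groups did not overlap, and the mean fell from 3760 ± 243 to 2541 ± 85.3 (SD, n = 3 per group), with a log2 fold change of -0.56 (SE 0.07, limma adjusted p = 0.0376). Synj2 (chr17:5941280-6044290, plus strand) encodes a phosphoinositide phosphatase of the synaptojanin family that acts in membrane recovery. Its values were 1667, 1741 and 1546 in controls and 1053, 1017 and 1148 in Kir2.1 mice, again without overlap. The mean fell from 1651 ± 98.3 to 1073 ± 67.4 (SD, n = 3 per group), with a log2 fold change of -0.62 (SE 0.08, limma adjusted p = 0.0417). For both genes the call was lost with any 1 mouse left out, at adjusted p-values from 0.079 to 0.175 for Syt1 and from 0.0711 to 0.183 for Synj2 by limma.

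**Figure D2:**
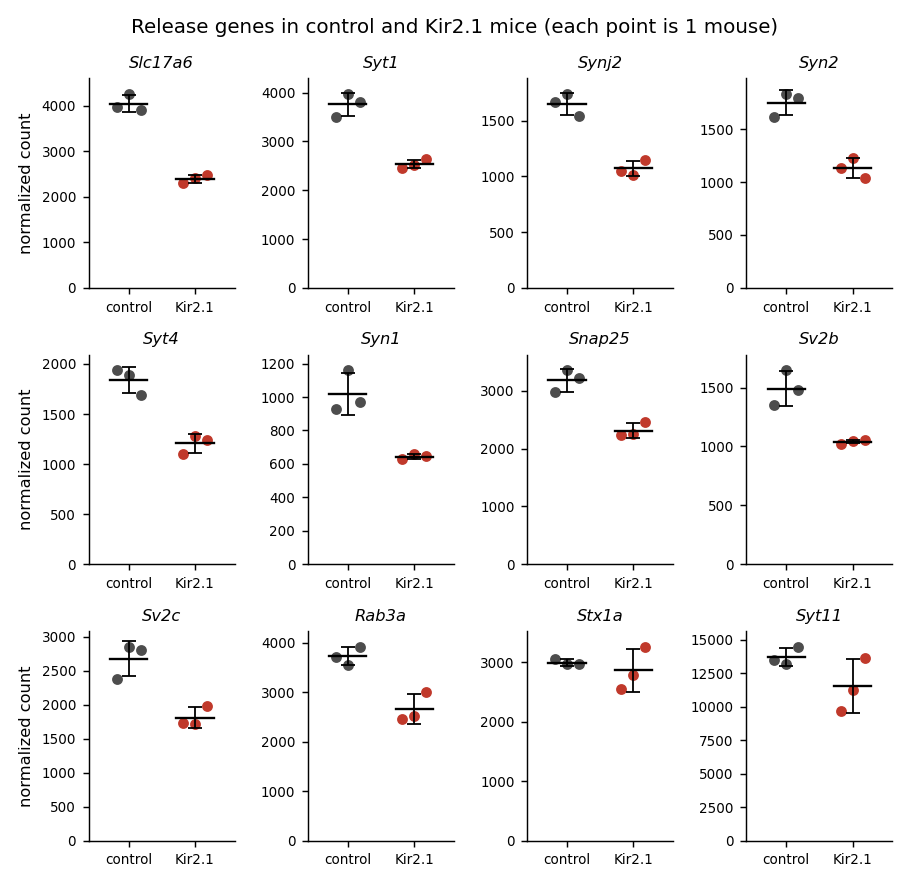
Normalized counts of 12 members in each of 3 control (grey) and 3 Kir2.1 (red) mice, on linear axes from 0, with the mean and SD of each group in black. The groups are apart for the first 10 genes, of which Slc17a6, Syt1 and Synj2 passed the adjusted threshold, and overlap for Stx1a and Syt11.

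Beyond these 3, lower values were common among the members. At an unadjusted p under 0.05, 24 of 87 were lower in Kir2.1 mice (27.6%, against 6.2% of all genes tested) and 4 were higher (against 4.93%). The groups did not overlap for 24 members that were lower and 6 that were higher, against 9.04% and 7.26% of all genes. In total 53 of 87 members, or 60.9%, had a log2 fold change below 0, against 48.8% of all genes. The median over the members was -0.09, and over all genes 0.01. The leaning was thus carried by part of the list and not by all of it. Without control mouse 1 the counts at an unadjusted p under 0.05 were 21 lower and 5 higher, and no member was called. The median lay between -0.12 and -0.06 with each mouse left out, and came to -0.06 without Kir2.1 mouse 1.

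All these values are relative to the whole epithelium, in which the mature OSN markers moved in the same direction. All 10 such markers had lower values in the Kir2.1 group with an unadjusted p under 0.05, with a median log2 fold change of -0.41, and Omp passed the adjusted threshold. Their summed level was 135801, 145878 and 150458 in the control mice and 99870, 102766 and 112919 in the Kir2.1 mice. In bulk tissue, fewer cells of a type and less RNA per cell cannot be told apart. Markers of immature neurons (7 genes), progenitors (6) and sustentacular cells (4) gave none at an unadjusted p under 0.05. Of the immune and blood markers 3 of 5 were higher at that threshold, with a sum of 6271 to 11100 in controls and 11853 to 17722 in Kir2.1 mice. All 4 vomeronasal neuron markers were below 0, with a median of -0.68, and Trpc2, the channel of those neurons, ranged from 283 to 528 in controls and from 145 to 225 in Kir2.1 mice (-1.16, SE 0.26, limma adjusted p = 0.173). The part of these cell types in the results on release genes was not tested.

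The log2 values were then centred on the OSN markers other than Omp, the set used wherever such centring is given. This raised the median of all genes from 0.01 to 0.42. After it 33 members were called higher and 1, Slc17a6, lower, where 0 and 3 had been called before. Over all 19807 genes, 9785 were called in either direction after it, where 70 had been called before. The members' median changed sign to 0.32 and remained below that of all genes. Slc17a6 kept a log2 fold change of -0.35 (limma adjusted p = 0.0129) against these markers. Syt1 and Synj2 came to -0.15 and -0.21, with adjusted p-values of 0.0976 and 0.0968 by limma. Relative to this set of markers, then, Slc17a6 alone of the members was called lower. Before centring, the log2 fold changes of the set ranged from -0.54 (Adcy3) to -0.34 (Cnga2). Omp, which was left out of it, was at -0.60. Centring on other sets of OSN markers was not tested.

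Proteins of the vesicle membrane and its surface were the role with the most low values. Of 15 members, 13 were below 0, 10 had an unadjusted p under 0.05, all of them lower, and 11 did not overlap between groups, where the shares of all genes were 48.8%, 6.2% and 9.04%. Their median log2 fold change was -0.49, and none of the 15 passed the adjusted threshold. When centred on the OSN markers the median was -0.08, against 0.42 for all genes. After that centring 9 were below 0 and 6 above, and none was lower at an unadjusted p under 0.05. Of the 15, 3 were then called higher, where 9785 of all 19807 genes were called in either direction.

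The synapsins, phosphoproteins that tether vesicles in the reserve pool, showed this in all mice for Syn1 and Syn2. Syn1 was at 926, 1159 and 969 in controls and at 629, 658 and 645 in Kir2.1 mice, with a log2 fold change of -0.65 (SE 0.10, limma adjusted p = 0.0693). Syn2 was at 1615, 1833 and 1798 in controls and at 1135, 1230 and 1035 in Kir2.1 mice (-0.63, SE 0.09, limma adjusted p = 0.0575). For both genes the groups were well separated, with means at 63.2% and 64.8% of the control means. Syn3, far less abundant, gave -0.10 (SE 0.17) with overlapping groups.

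The SV2 genes, which encode vesicle glycoproteins that bind synaptotagmin, had similar values. Sv2b was at 1352, 1645 and 1476 in controls and at 1024, 1044 and 1051 in Kir2.1 mice (log2 fold change -0.52, SE 0.09, limma adjusted p = 0.0873). Sv2c went from 2678 ± 259 to 1810 ± 153 (-0.56, SE 0.10, limma adjusted p = 0.0910; SD, n = 3 per group), and its highest Kir2.1 mouse (1987) was below its lowest control (2380). Sv2a, from 2140 ± 227 to 1508 ± 282, gave -0.52 with the larger SE of 0.15, since Kir2.1 mouse 3 at 1183 was well below the other two at 1685 and 1657.

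Rab3a, the GTPase that recruits RIM to the vesicle, was at 3721, 3554 and 3917 in controls and at 2457, 2530 and 3014 in Kir2.1 mice (log2 fold change -0.49, SE 0.09, limma adjusted p = 0.114). Its relative Rab3b gave -0.40 (SE 0.10), whereas Rab3c and Rab3d were at -0.03 and 0.06. Syp went from 7871 ± 1237 to 5950 ± 790 (-0.40, SE 0.14; SD, n = 3 per group), and its controls were spread by mouse 3 at 9295 against 7059 and 7260. Of the synaptogyrins, tetraspan relatives of Syp, Syngr1 and Syngr3 gave -0.59 and -0.45. Syngr2, a form widespread outside neurons, had 1225, 1362 and 1334 in controls and 1783, 1285 and 1316 in Kir2.1 mice, so the groups overlapped.

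**Figure D3:**
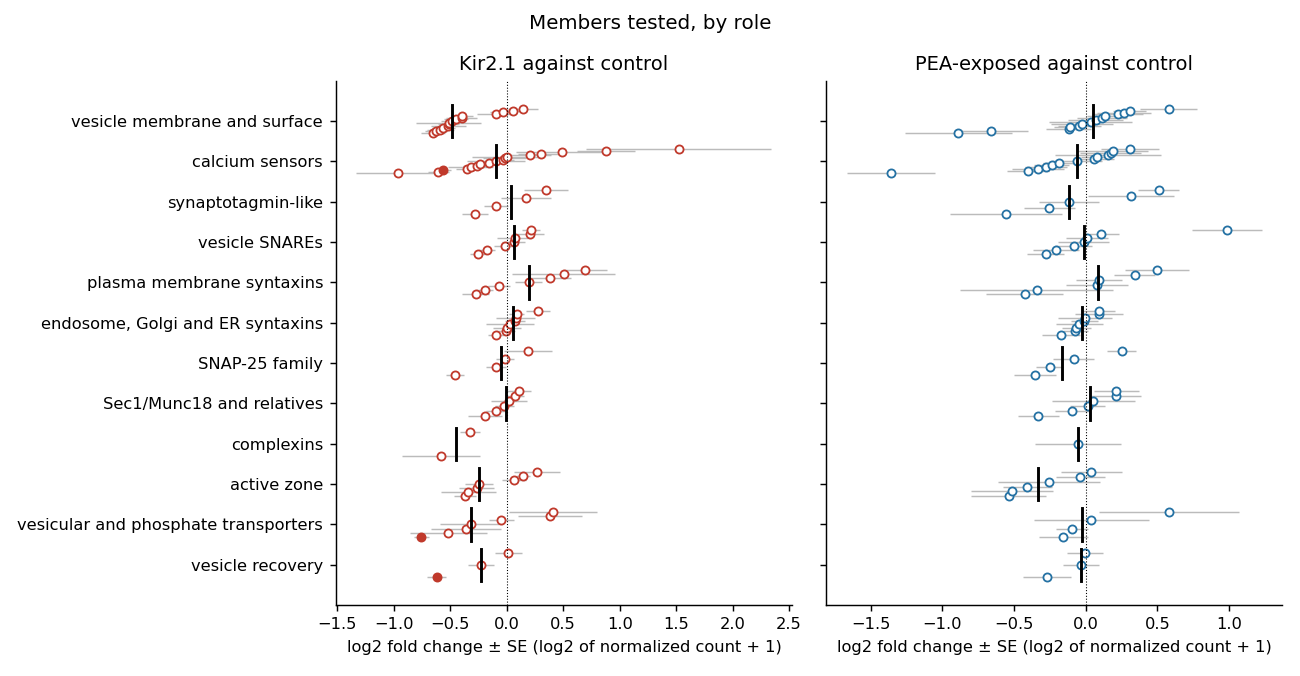
Log2 fold change with its standard error for every member tested, by role, in the Kir2.1 experiment (left, 87 members) and the PEA experiment (right, 77 members). Filled points passed an adjusted p of 0.05 and black bars are medians by role, which are relative to the whole epithelium; centring on OSN markers raises every point on the left and leaves medians below 0 only for the vesicle membrane group (-0.08) and the complexins (-0.04). On the left the vesicle membrane group has the lowest median, -0.49, and on the right the medians lie on both sides of 0.

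The role of calcium sensors, which holds every synaptotagmin including forms such as Syt11 that lack calcium binding, split by member. Of 17 synaptotagmins tested, 5 (29.4%) were lower at an unadjusted p under 0.05, against 6.2% of all genes. At that threshold 1 was higher, where the share of all genes was 4.93%. The median was -0.10, which turned to 0.31 when centred on the OSN markers. Besides Syt1, the dense-core and lysosome-associated forms Syt4 and Syt7 were low. Syt4 was at 1936, 1885 and 1690 in controls and at 1098, 1281 and 1242 in Kir2.1 mice (log2 fold change -0.61, SE 0.09, limma adjusted p = 0.0636). Syt7 went from 7084 ± 527 to 5543 ± 581 (-0.36, SE 0.10; SD, n = 3 per group).

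Syt11, which lacks calcium binding and is the most abundant synaptotagmin, was at 13485, 13154 and 14464 in controls and at 9671, 11223 and 13657 in Kir2.1 mice. The third Kir2.1 mouse was within the control range, and the log2 fold change of -0.26 (SE 0.13) had a limma adjusted p of 0.508. Syt17 was the synaptotagmin with higher values, at 38.7, 39.5 and 35.6 in controls and 64.6, 56.2 and 97.0 in Kir2.1 mice (0.88, SE 0.26, limma adjusted p = 0.265). Syt2 (-0.10, SE 0.26) and Syt14 (-0.16, SE 0.11) overlapped between groups. The synaptotagmin-like genes, which act in Rab27-dependent secretion, had a median of 0.04 over 4 tested, and Sytl1 was at 1634 ± 144 and 1531 ± 150 (SD, n = 3 per group).

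The fusion machine itself was uneven. Snap25 was at 2973, 3352 and 3214 in controls and at 2236, 2246 and 2457 in Kir2.1 mice (log2 fold change -0.46, SE 0.08, limma adjusted p = 0.0804), and the groups were apart. Vamp2, its vesicle partner, was at 5379, 5409 and 5026 in controls and at 4221, 4288 and 4762 in Kir2.1 mice (-0.25, SE 0.07, limma adjusted p = 0.265). By contrast, Stx1a, the third SNARE, was at 3056, 2966 and 2969 in controls and at 2550, 2786 and 3260 in Kir2.1 mice, which overlap (-0.07, SE 0.10, limma adjusted p = 0.860).

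SNAREs that serve other membranes had medians near or above 0. The 8 syntaxins of endosome, Golgi and ER had a median log2 fold change of 0.05. Of these 1, Stx8, was higher at an unadjusted p under 0.05, at 0.28 (SE 0.11), against 4.93% of all genes. Stx12 gave -0.09 (SE 0.07). The 7 plasma membrane syntaxins had a median of 0.19, with Stx2 at -0.20 (SE 0.07). Stx19, expressed in epithelia, was at 41.6, 51.4 and 43.8 in controls and at 80.8, 67.5 and 74.4 in Kir2.1 mice (0.69, SE 0.20, limma adjusted p = 0.255). Among the 7 vesicle SNAREs, Vamp8, which acts in secretory cells, gave 0.21 (SE 0.08), Vamp5, a muscle-enriched form, 0.21 (SE 0.13), and Vamp3 -0.18 (SE 0.07). Snap29 was at -0.01 (SE 0.08). The Sec1 family gave no member at an unadjusted p under 0.05 out of 6, where the shares of all genes were 6.2% lower and 4.93% higher.

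Of the complexins, Cplx2 was at 7300, 8267 and 7822 in controls and at 5824, 5941 and 6952 in Kir2.1 mice (log2 fold change -0.32, SE 0.09, limma adjusted p = 0.246), without overlap. Cplx1, at 28.2 ± 8.43 and 18.1 ± 3.07 (SD, n = 3 per group), gave -0.58 with an SE of 0.34. Active zone scaffolds did not move as 1 group: 1 of 7 was lower at an unadjusted p under 0.05, against 6.2% of all genes. Their median of -0.25 turned to 0.16 when centred on the OSN markers. Bsn was at 4108, 5112 and 4325 in controls and at 3488, 3286 and 3678 in Kir2.1 mice (-0.37, SE 0.10, limma adjusted p = 0.222). Its large relative Pclo gave 0.07 (SE 0.11) and Erc2 0.27 (SE 0.20), both with overlapping groups. Rims1 was at -0.27 (SE 0.16), whereas Rims3 was at 5577, 5498 and 5561 in controls and at 5849, 6151 and 6346 in Kir2.1 mice (0.14, SE 0.06, limma adjusted p = 0.466), a small difference without overlap.

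Of the remaining transporters, Slc17a7 went from 91.3 ± 29.3 to 70.5 ± 6.42 (log2 fold change -0.31, SE 0.28; SD, n = 3 per group), and the groups overlapped. Of the recovery genes, Synj1, the main neuronal synaptojanin, was at 1383, 1151 and 1186 in controls and at 1317, 1360 and 1087 in Kir2.1 mice (0.01, SE 0.12), unlike Synj2. Snap91 gave -0.23 (SE 0.11), with Kir2.1 mouse 3 at 2841 inside the control range of 2756 to 2963. In Stx1a, Syt11 and Snap91, Kir2.1 mouse 3 was the highest of its group. The same mouse had the highest OSN marker sum of the 3, and the part of that sum in these values was not tested.

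Other genes of the vesicle pathway were taken from a list of 61 that the rule leaves out. Of these 57 were tested, none was called, 9 (15.8%) had a lower and 3 a higher value with unadjusted p under 0.05, against 6.2% and 4.93% of all genes, and their median log2 fold change was -0.06. Groups did not overlap for 14 genes of the list that were lower (24.6%, against 9.04%) and 3 that were higher (against 7.26%). Among those with the smallest p were Slc6a17, a vesicular amino acid transporter (-0.61, SE 0.11, limma adjusted p = 0.0887), Slc18a1, a vesicular monoamine transporter (0.86, SE 0.18, limma adjusted p = 0.144), Napb, a neuronal SNAP cofactor of SNARE disassembly (-0.38, SE 0.08, limma adjusted p = 0.153), and Dnm1, the neuronal dynamin (-0.53, SE 0.13, limma adjusted p = 0.187). Slc18a1 was low, at 62.3 ± 5.49 in controls and 114 ± 14.4 in Kir2.1 mice (SD, n = 3 per group). The Unc13 priming factors are outside that list and its counts. Unc13a went from 2123 ± 599 to 1594 ± 114 and Unc13b from 5054 ± 221 to 4831 ± 9.91 (SD, n = 3 per group), with limma adjusted p-values of 0.595 and 0.791. Unc13c and Unc13d gave log2 fold changes of -0.03 and 0.41, with limma adjusted p-values of 0.955 and 0.555. An exact permutation test over 3 against 3 mice cannot give a p under 0.1, and it gave 0.1 for Slc17a6, Syt1 and Synj2.

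The second comparison asked how the same genes stood after exposure to PEA. Of the 93 members, 77 passed the mean of 10 and 16 did not, among them Slc17a7, Cplx1, Syt17 and Stx11. None of the 77 was called in the limma fit with Benjamini-Hochberg adjustment, where 0.179% of 17322 genes were. At an unadjusted p under 0.05, 8 members (10.4%) were lower and 6 higher in exposed mice, against 6.04% and 8.93% of all genes. Without control mouse 2 these counts were 2 lower and 5 higher, and with the vomeronasal receptor level as a covariate they were 4 and 2. Groups did not overlap for 2 members that were lower and 3 that were higher, against 3.86% and 5.46%. The log2 fold change was below 0 for 44 of 77 members, or 57.1%, against 53.5% of all genes, and the median was -0.03 for members and -0.02 for all genes. That median changed sign when control mouse 2 (0.0043) or control mouse 4 (0.0011) was left out.

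The smallest p-values were in genes of low or moderate level. Syt2, a fast calcium sensor of hindbrain and motor synapses, had 39.0, 20.4, 21.3 and 22.6 in the 4 controls in order of number and 9.26, 10.5, 7.43 and 9.52 in the 4 exposed mice. The groups did not overlap, although control mouse 1 was well above the other 3 controls, and the log2 fold change was -1.36 (SE 0.31, limma adjusted p = 0.111). Vamp5 was at 42.3, 46.8, 24.2 and 29.7 in controls and at 58.4, 82.3, 63.4 and 76.0 in exposed mice (0.98, SE 0.24, limma adjusted p = 0.129), with every exposed mouse above every control. Sytl1 was at 117, 111, 112 and 124 in controls and at 131, 178, 172 and 187 in exposed mice (0.51, SE 0.14, limma adjusted p = 0.157), with exposed mouse 1 closest to the controls. The exact permutation test over 4 against 4 mice gave 0.0286 for each of these 3, the smallest p that it can give and the value for any gene without overlap.

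Syngr2 (log2 fold change 0.58, SE 0.20), Syt14 (-0.40, SE 0.15) and Snap29 (-0.25, SE 0.09) followed, with limma adjusted p-values of 0.228, 0.244 and 0.257. For Syngr2 the values were 283, 216, 230 and 232 in controls and 258, 499, 302 and 419 in exposed mice, so exposed mouse 1 was within the control range. For Snap29 the means were 666 ± 35.5 and 560 ± 35.0 (SD, n = 4 per group), and the groups did not overlap, since its highest exposed mouse was at 601 and its lowest control at 624.

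The genes called in Kir2.1 mice had no such separation after PEA. Slc17a6 was at 1062, 1356, 1118 and 1416 in controls and at 1151, 1190, 1197 and 1067 in exposed mice (log2 fold change -0.10, SE 0.11, limma adjusted p = 0.732). Syt1 went from 1257 ± 151 to 1066 ± 123 (-0.24, SE 0.12, limma adjusted p = 0.388; SD, n = 4 per group) and Synj2 from 352 ± 21.1 to 353 ± 49.5 (0.00, SE 0.12, limma adjusted p = 0.990; SD, n = 4 per group). The difference between the experiments was not tested, because their tables were normalized separately and their libraries were made from different RNA fractions. Over 76 members tested in both, 30 were below 0 in both, 15 above 0 in both and 31 of opposite sign, and the log2 fold changes correlated at Pearson's r = 0.20 and Spearman's rho = 0.20 across genes, which are not independent.

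The control mice of the PEA experiment differed among themselves in several neuronal release genes. Bsn was at 74.4, 242, 152 and 287 in control mice 1 to 4 and between 128 and 160 in the exposed mice. Pclo was at 943, 2295, 1312 and 2692 in controls and between 1048 and 1314 in exposed mice, and Cplx2 at 321, 699, 468 and 1036 in controls and between 457 and 637 in exposed mice. In each, control mice 2 and 4 were the highest of the 8 mice and control mouse 1 the lowest. These genes were singled out after their values were seen. Among all 77 members, the highest control was mouse 4 for 26 (33.8%, against 31.4% of all genes), mouse 2 for 21 (27.3%, against 18.8%), mouse 1 for 17 (22.1%, against 30.1%) and mouse 3 for 13 (16.9%, against 19.8%). The ratio of highest to lowest control was above 2 for 11 of 77 members (14.3%) and for 22.3% of all genes tested, so a wide spread was not more frequent among the members.

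The OSN marker sum came to 32983, 37474, 33934 and 37184 for the 4 controls by number and to between 32417 and 37723 in the exposed mice, so control mice 2 and 4 were the higher controls there too, by a smaller margin. The immature neuron markers followed the same controls more strongly, with sums of 10604, 15802, 11281 and 15831, and the ciliated cell markers ran the other way, with 8959, 5846, 8360 and 6226. The part of these cell types in the spread of Bsn, Pclo and Cplx2 was not tested. With that spread, Pclo gave a log2 fold change of -0.51 (SE 0.29, limma adjusted p = 0.435) and Bsn of -0.26 (SE 0.35, limma adjusted p = 0.775). Syn1 was near the bottom of the scale in this experiment, at 16.9, 33.6, 18.9 and 37.9 in controls and 19.5, 15.7, 12.2 and 8.03 in exposed mice (-0.89, SE 0.37, limma adjusted p = 0.305). Rims3 gave -0.41 (SE 0.17), Sv2a -0.66 (SE 0.26) and Stx1a 0.50 (SE 0.22), with overlapping groups.

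**Figure D4:**
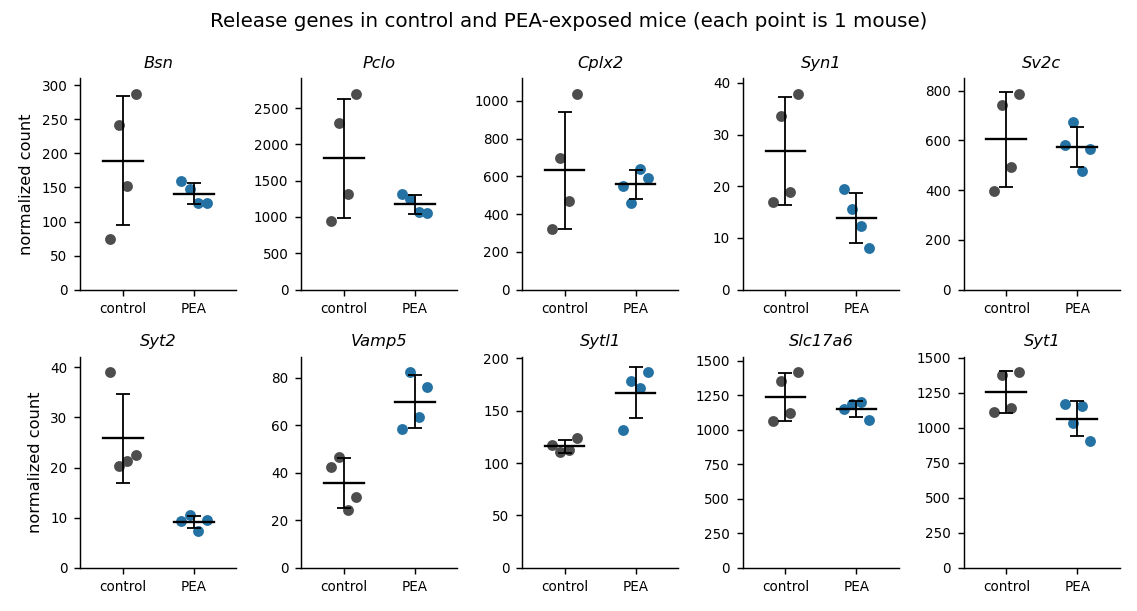
Normalized counts of 10 members in each of 4 control (grey) and 4 PEA-exposed (blue) mice, on linear axes from 0, with the mean and SD of each group in black. Bsn, Pclo and Cplx2 show the spread among controls, Syt2, Vamp5 and Sytl1 have groups that do not overlap, and Slc17a6 and Syt1 overlap.

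The other core genes had overlapping groups after PEA. Snap25 had a log2 fold change of -0.08 (SE 0.15), Vamp2 of -0.01 (SE 0.18), Syp of 0.07 (SE 0.19) and Rab3a of 0.27 (SE 0.19). Syn2 and Sv2b were at -0.12 (SE 0.16) and -0.11 (SE 0.11), and Synj1 was at -0.27 (SE 0.17). All had limma adjusted p-values above 0.4. In the pathway list 48 of 61 genes were tested, none was called, 8 (16.7%) had a lower and 7 a higher value with unadjusted p under 0.05, against 6.04% and 8.93% of all genes, and the median was 0.01. Groups did not overlap for 5 that were lower (10.4%, against 3.86%) and 6 that were higher (against 5.46%). Outside that list, Unc13c went from 611 ± 63.2 to 447 ± 33.5 (-0.45, SE 0.11, limma adjusted p = 0.131; SD, n = 4 per group) without overlap. Unc13a, Unc13b and Unc13d, at 0.09, -0.24 and -0.20, had overlapping groups.

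The levels of members also differed between the controls of the 2 experiments, and the difference went with the GC content of the transcript. The ratio of the control mean in the Kir2.1 table to that in the PEA table had a median of 3.79 over 75 members with a known transcript, and of 2.99 over 15126 coding genes. It ranged from 0.903 for Sytl4 to 38.0 for Syn1, with Bsn at 23.9 and Vamp2 at 17.7, and with Erc2 at 0.960 and Syt14 at 1.00 among the lowest. Across the members the log2 ratio correlated with the GC content of the transcript at Pearson's r = 0.74 (n = 75 genes), and across coding genes at 0.73. These points share their libraries, and the 2 tables differ in RNA selection, read length, strand, strain as the methods give it and normalization, which cannot be told apart. Syn1, for example, had a mean of 1018 in the controls of the Kir2.1 experiment and of 26.8 in those of the PEA experiment.

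**Figure D5:**
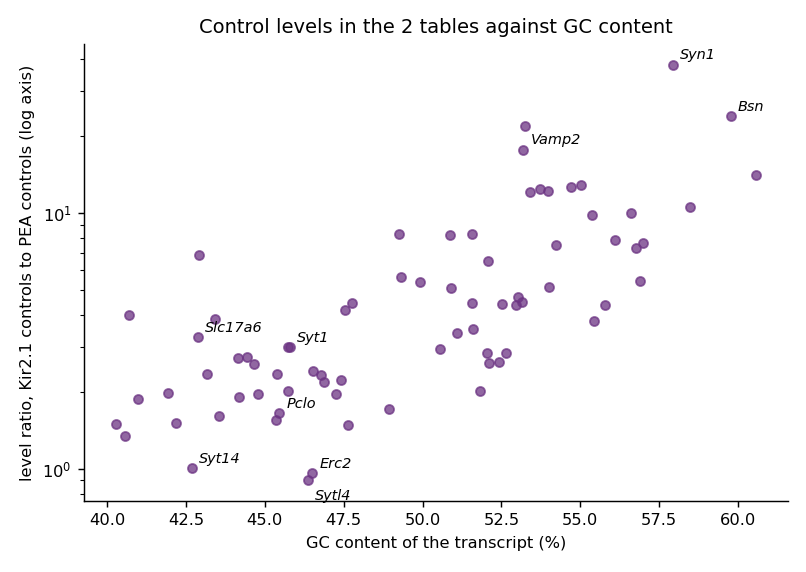
Ratio of the mean control level in the Kir2.1 table to that in the PEA table for 75 members, on a log axis, against the GC content of the transcript in percent. Each point is 1 gene. The ratio is near 1 for Syt14, Erc2 and Sytl4 and reaches 38.0 for Syn1, and it is higher for transcripts of higher GC content (r = 0.74 on the log2 ratio).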

How the data were processed

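The deposited values, unit signal, are counts that the authors estimated per transcript with Salmon 1.3.0 on Ensembl transcripts of GRCm38, summed per gene and normalized with DESeq2 1.30.0, each experiment in its own table. The methods give a reverse-strand setting for every library, also for the unstranded poly-A selected Kir2.1 libraries; the PEA libraries were ribosomal-RNA depleted and stranded. Whole reads could not be recovered: at most 14.2% of values in a mouse were whole multiples, within 0.01, of the commonest low value, so no count test was run and depth is unknown.

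Every gene with a mean of at least 10 in an experiment was fitted with limma 3.58.1 (R 4.3.3; empirical Bayes with a trend) on log2(value + 1), a scale that understates changes of low genes, with Benjamini-Hochberg adjustment over all genes and a threshold of 0.05; the authors' own DESeq2 fit needs counts and was not run. Exact permutation tests were two-sided. Lengths, GC and positions are from GENCODE vM21. Python 3.11.15 with numpy 2.4.6, pandas 2.3.3 and matplotlib 3.10.9 did the rest. The fit was also run on simulated data, in which changes were absent or larger than those of the called members. That run does not bear on changes of their size.

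Members, role groups and lists were chosen with earlier results of these data known. Members were named if called, if among the 10 (Kir2.1) or 6 (PEA) smallest p-values, or if in a fixed core list. Those highest per kilobase in their role in the Kir2.1 controls were also named, and others are named as examples. A few genes that the rule names are not reported here, though they remain in every fit and count. Mice with the same replicate number were not treated as pairs: their deviations correlated at -0.06, -0.01 and 0.16 (Kir2.1) and 0.13, -0.02, -0.05 and 0.10 (PEA).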

Additional observations from a re-analysis of the deposited data

Results flagged for a closer look

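In the PEA experiment, 60 groups of 4 mice were examined among the named members, and in 4 of them 1 mouse stood apart from the other 3 by Dixon's criterion, which chance alone meets in about 1 of 20 groups. Snap25 was at 730 in exposed mouse 2 and between 770 and 777 in the others. Stx12 was at 1341 in control mouse 2 and between 1238 and 1249 in the others. Synj1 was at 407 in control mouse 1 and between 600 and 638 in the others. Syt2 was at 39.0 in control mouse 1 and between 20.4 and 22.6 in the others. Groups of 3 mice were not examined in this way.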

How the results depend on the processing

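Each alternative changed 1 choice at a time. In the Kir2.1 experiment the 3 calls became 0 without a mean-variance trend, 5 with robust empirical Bayes, 34 when centred on OSN markers, 0 with vomeronasal receptor level as a covariate, 9 at an adjusted p under 0.10 and 1 with Xist as a covariate, an alternative chosen after seeing the data. Over all genes 70 were called in the main fit. That count became 20 without the trend, 86 with robust empirical Bayes and 9785 when centred on OSN markers. It was 22 with the vomeronasal covariate and 44 with Xist. With each mouse left out in turn 0 to 1 members were called, and 23 to 44 of all genes. Quantile normalization and median centring each gave 4 members, and 71 and 77 of all genes. With the replicate block no member was called (0, and 9 of all genes; Slc17a6 had a limma adjusted p of 0.0786), although the replicate numbers did not pair the mice. The members' median log2 fold change was -0.047 without a filter and 0.32 when centred on OSN markers. After PEA no alternative, the replicate block included, called a member (0), and the median came to 0.042 when centred on OSN markers while leaving out single mice gave -0.057 to 0.0043.

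The following log2 fold changes of single genes changed sign. In the Kir2.1 experiment Synj1 came to -0.0031 (quantile normalization), -0.025 (median centring) and -0.0015 (Xist), and with the vomeronasal covariate Pclo came to -0.0027 and Snap29 to 0.018. Centring on OSN markers gave Bsn 0.041, Cplx2 0.086, Rims1 0.14, Slc17a7 0.097, Snap29 0.4, Snap91 0.18, Stx12 0.32, Stx1a 0.34, Syp 0.0096, Syt11 0.15, Syt14 0.25, Syt2 0.31, Sytl1 0.32 and Vamp2 0.16. With each mouse left out, Pclo ranged from -0.0019 to 0.16, Snap29 from -0.052 to 0.033, Stx1a from -0.17 to 0.0082, Syngr2 from -0.0058 to 0.23, Synj1 from -0.047 to 0.11 and Syt2 from -0.25 to 0.2. After PEA, Rims1 came to -0.029 (quantile normalization) and -0.01 (median centring), Erc2 to 0.021 and Synj2 to 0.026 (vomeronasal covariate), and Snap91 to 0.0041 (Xist). Centring on OSN markers gave Cplx2 0.022, Erc2 0.038, Snap91 0.042, Stx12 0.0029, Sv2c 0.048, Synj2 0.07 and Vamp2 0.06. With each mouse left out, Bsn ranged from -0.64 to 0.0011, Cplx2 from -0.33 to 0.23, Erc2 from -0.15 to 0.07, Rims1 from -0.11 to 0.18, Snap25 from -0.17 to 0.041, Snap91 from -0.11 to 0.035, Sv2c from -0.21 to 0.12, Synj2 from -0.077 to 0.063, Syp from -0.067 to 0.21 and Vamp2 from -0.17 to 0.094. Why these values moved, that is, the cause, was not tested. The depth of the libraries is unknown, and 3 or 4 mice per group limit the precision.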

Other observations

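Markers of other cell types that the report does not describe were as follows. In the Kir2.1 experiment none of 3 horizontal basal, 3 tuft-like or 3 muscle markers had an unadjusted p under 0.05 by limma, and 1 of 5 glial and 1 of 3 ciliated cell markers (S100b at a log2 fold change of 0.48 and Dnah5 at 0.66) were higher at that threshold. In the PEA experiment the basal keratin genes Krt5 and Krt14 were at 0.63 (SE 0.17, limma adjusted p = 0.142) and 0.62 (SE 0.14, limma adjusted p = 0.108), 2 of 3 tuft-like and 1 of 3 ciliated cell markers were higher at an unadjusted p under 0.05, and 2 of 4 glial markers tested were lower. None of these passed the adjusted threshold. Of the mature OSN markers after PEA, Omp was at 0.31 (SE 0.11) and Gnal at -0.37 (SE 0.11), with limma adjusted p-values of 0.252 and 0.165.

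Kirrel2 and S100a5, genes of mature OSNs that depend on activity, were called lower in Kir2.1 mice, at log2 fold changes of -1.75 and -1.75 by limma, and were at 0.16 and 0.21 after PEA. The median spread among control mice, as a coefficient of variation, was 8.48% for members and 11.2% for all genes tested in the Kir2.1 experiment, and 15.9% and 17.8% in the PEA experiment.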
